A study of Homo sapiens with 24 samples.

Results

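The zinc finger genes of chromosome band 19p12 are a run of related genes that expanded in primates, and 33 of them, picked by symbol from a fixed list, were followed across all libraries of the study. Both count tables hold every one of the 33, among 60671 genes in all. The rule uses symbols and no measured value, and no member was left out for a low level, but the list was drawn up with earlier results of these data known. RNA was measured in 24 libraries in 8 groups of 3. The cells came from H1 and H9, established lines of human embryonic stem cells that can be kept primed, resembling the epiblast after implantation, or naive, resembling the epiblast before it. In H1, primed cells carried a CARHSP1 knockdown or a nontargeting control, naive cells a ZNF8 knockdown or a nontargeting control, and cells on day 2 of ectoderm differentiation a ZIC2 knockdown or a nontargeting control. All 18 H1 libraries are labelled with doxycycline, controls included. The 6 H9 libraries came from primed and from naive cells, with no genotype or treatment listed. The sources used here do not give how each knockdown was made or which medium held the naive cells, and list 1 maintenance medium for all samples. Nothing in the labels states that replicates came from separate cultures. The p-values therefore measure spread between these samples alone, and that spread may be technical.

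Most genes of this cluster encode proteins with a KRAB domain and a long array of zinc fingers. The fingers read DNA, and the KRAB domain binds TRIM28 (KAP1), which brings in the histone methyltransferase SETDB1 and other silencing factors. Many such proteins bind transposable elements. ZNF91 is known for repressing SVA elements, and ZNF93 for binding and repressing L1 elements, in human pluripotent cells. Naive cells are known for lower DNA methylation and for more RNA from transposable elements than primed cells.

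Library totals lay between 6756704 and 20773963 counts. Levels are counts scaled to library size (CPM) on 1 scale over all 24 libraries, given as mean ± SD of 3 libraries. Changes are given as log2 ± SE. They were tested by edgeR's quasi-likelihood method, with p adjusted over all genes tested after Benjamini and Hochberg, and a gene is called at an adjusted p under 0.05. CARHSP1 was at 19.1 ± 1.47 CPM in its knockdown and 149 ± 2.45 in its control, and ZIC2 at 267 ± 4.19 and 555 ± 61.7. ZNF8 was at 16.3 ± 1.30 CPM in its knockdown and 20.03 ± 3.04 in its control, and that difference was not called (log2 −0.32 ± 0.13; edgeR adjusted p = 0.0664). The 8 naive markers summed to 584 to 612 CPM in naive H1 controls and 268 to 279 in naive H9 cells, against 25.5 to 44.7 in the primed groups. KLF17, a naive marker, was at 10.8 ± 1.14 CPM in naive H1 controls and 0.0679 ± 0.0593 in naive H9 cells. The 7 ectoderm markers summed to 1014 to 1160 CPM in ectoderm controls against 142 to 148 in primed H1 controls, with HES5 at 0 counts in the ectoderm controls.

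The members lie between 19785839 and 24129961 on chromosome 19 (GRCh38), a stretch of 4.34 megabases. GENCODE 29 lists 198 genes there, of which 37 are protein-coding and 114 are pseudogenes. In addition to the members, ZNF66 and ZNF723 are protein-coding zinc finger genes of the interval. By strand, 17 members are on the plus strand and 16 on the minus strand. A search of each longest open reading frame found a median of 13 zinc fingers, from none in ZNF738 and 8 in ZNF506 to 32 in ZNF91, 36 in ZNF208 and 39 in ZNF729. The members' transcripts had a median GC content of 37.4%, against about 48.1% over the genes tested in naive against primed H1 cells.

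Because the genes are copies of each other, some reads cannot be placed with certainty. A median of 6.49% of a member's 50-base windows also occurred in another gene's transcripts. The share was over 20% for 3 members, namely ZNF98 (58.1%, mostly shared with ZNF492), ZNF724 (55.9%, mostly with an overlapping gene model on the same strand) and ZNF492 (33.3%, mostly with ZNF98), whose values are uncertain. Another annotated gene overlaps 31 of the 33, on the opposite strand for 28, and the sources used here do not give the strand setting of the counting. ZNF486 is covered over its whole length by the antisense gene AC011447.3, which was at 12.2 ± 2.62 CPM in naive and 12.8 ± 0.459 in primed H1 controls, and at 7.89 ± 0.910 in naive and 7.40 ± 2.06 in primed H9 cells. How reads of the overlap were divided between ZNF486 and the antisense gene was not tested.

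Promoters of 25 members were found in RefSeq (GRCh38.p14), each covering 250 bases before to 50 after the start. ZNF728, ZNF729, ZNF738, ZNF99, ZNF98, ZNF253, ZNF506 and ZNF676 had no entry. Aligned in pairs, the 25 promoters were 48.9% to 91.0% identical, with a median of 77.2%. Closest were ZNF714 and ZNF431, neighbours along the chromosome, at 91.0%. ZNF90 and ZNF486, also neighbours, were 86.9% identical. The 6 below are shown because their genes lead the results: ZNF486 and ZNF675 were highest in naive H1 cells, ZNF90 moved in opposite directions in the 2 lines, ZNF43 was highest in ectoderm, and ZNF208 and ZNF492 were near 0 outside naive H9 cells. Capitals mark the 3 motifs TCCAATCAGG, CTGTCACTCAGG and GGCTTCCGGG.
ZNF486 (chr19:20166964-20167263, plus strand): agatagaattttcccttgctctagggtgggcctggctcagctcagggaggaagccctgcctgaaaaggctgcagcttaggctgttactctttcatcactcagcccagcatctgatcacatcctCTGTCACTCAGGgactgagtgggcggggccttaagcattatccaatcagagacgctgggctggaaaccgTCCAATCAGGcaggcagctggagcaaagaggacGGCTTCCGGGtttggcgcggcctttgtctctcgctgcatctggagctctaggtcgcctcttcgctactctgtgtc
ZNF90 (chr19:20077750-20078049, plus strand): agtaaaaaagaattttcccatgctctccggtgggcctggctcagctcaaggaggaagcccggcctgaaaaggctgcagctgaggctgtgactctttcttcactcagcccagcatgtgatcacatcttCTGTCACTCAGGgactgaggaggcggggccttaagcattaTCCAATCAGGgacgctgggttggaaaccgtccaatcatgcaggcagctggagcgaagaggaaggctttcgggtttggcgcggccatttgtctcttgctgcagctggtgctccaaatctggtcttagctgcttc
ZNF675 (chr19:23687163-23687462, minus strand): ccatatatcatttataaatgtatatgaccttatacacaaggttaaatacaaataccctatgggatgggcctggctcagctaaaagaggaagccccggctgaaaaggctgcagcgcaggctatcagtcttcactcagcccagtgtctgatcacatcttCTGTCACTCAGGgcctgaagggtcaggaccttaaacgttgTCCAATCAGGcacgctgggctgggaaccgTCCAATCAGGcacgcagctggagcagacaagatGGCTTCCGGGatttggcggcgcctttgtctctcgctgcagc
ZNF43 (chr19:21836133-21836432, minus strand): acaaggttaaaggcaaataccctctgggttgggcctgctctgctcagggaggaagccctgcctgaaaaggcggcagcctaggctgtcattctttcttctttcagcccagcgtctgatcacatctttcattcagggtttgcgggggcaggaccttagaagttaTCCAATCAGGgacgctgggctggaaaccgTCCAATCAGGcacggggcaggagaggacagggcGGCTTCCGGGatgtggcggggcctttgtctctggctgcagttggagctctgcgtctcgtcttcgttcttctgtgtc
ZNF208 (chr19:22010894-22011193, minus strand): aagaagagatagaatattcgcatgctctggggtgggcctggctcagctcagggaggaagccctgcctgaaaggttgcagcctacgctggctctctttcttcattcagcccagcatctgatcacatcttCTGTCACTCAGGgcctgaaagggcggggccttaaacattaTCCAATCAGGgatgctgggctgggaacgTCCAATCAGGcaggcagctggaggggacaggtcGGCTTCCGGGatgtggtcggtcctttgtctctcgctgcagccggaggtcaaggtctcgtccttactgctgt
ZNF492 (chr19:22634074-22634373, plus strand): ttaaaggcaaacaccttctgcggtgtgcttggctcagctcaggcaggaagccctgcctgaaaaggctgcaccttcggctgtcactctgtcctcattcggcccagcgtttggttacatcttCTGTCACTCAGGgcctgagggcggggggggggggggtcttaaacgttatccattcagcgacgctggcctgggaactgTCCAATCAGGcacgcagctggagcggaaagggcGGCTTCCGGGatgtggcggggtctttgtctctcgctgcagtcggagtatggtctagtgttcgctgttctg

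The 3 motifs were noticed by reading the members' promoters and then searched on both strands in all 27305 promoters of that length, so their counts are a description. TCCAATCAGG, which contains CCAAT, was in 23 of 25 members (all but ZNF257 and ZNF493) and in 0.388% of all promoters, at a median of 58 bases before the start. Among other zinc finger genes it was in 20 of 185 on chromosome 19 and in 13 of 193 on other chromosomes. CTGTCACTCAGG was in 18 of 25 members and 0.136% of all promoters, and GGCTTCCGGG in 19 of 25 and 0.469%. All 3 motifs were present in 11 members, 2 in 13 and 1 in ZNF682. The shorter CCAAT was in 25 of 25 members against 35.7% of all promoters, and TATAAA in 3 of 25 against 12%. The members' promoters held a median of 10 CpG sites, range 8 to 16, against a median of 14 over all promoters. The promoters of ZNF486 and ZNF675, the members with the largest rise in naive H1 cells, hold all 3 motifs, but so do those of ZNF208 and ZNF492, which were near 0 in the same libraries.

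Expression of the cluster was uneven. A block of 8 neighbouring members was at or near 0 in every group except naive H9 cells, ZNF726 was near 0 in all groups, and the other 24 members passed edgeR's low-count filter in all 6 comparisons. The 33 members together summed to 856 ± 31.6 CPM in primed H1 controls and 851 ± 71.2 in primed H9 cells, to 1372 ± 77.3 in naive H1 controls and 1017 ± 73.6 in naive H9 cells, and to 1125 ± 62.2 in ectoderm controls. In the knockdowns the sum was 824 ± 21.4 for CARHSP1, 1157 ± 70.4 for ZNF8 and 983 ± 18.3 for ZIC2. ZNF486 and ZNF675 made up 27.3% ± 0.514 of the sum in naive H1 controls and 8.57% ± 0.268 in primed H1 controls. Without these 2 genes the sum was 998 ± 59.5 CPM in naive and 782 ± 31.1 in primed H1 controls. In bulk RNA, more cells that express a gene and more RNA per cell cannot be told apart.

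**Figure D1:**
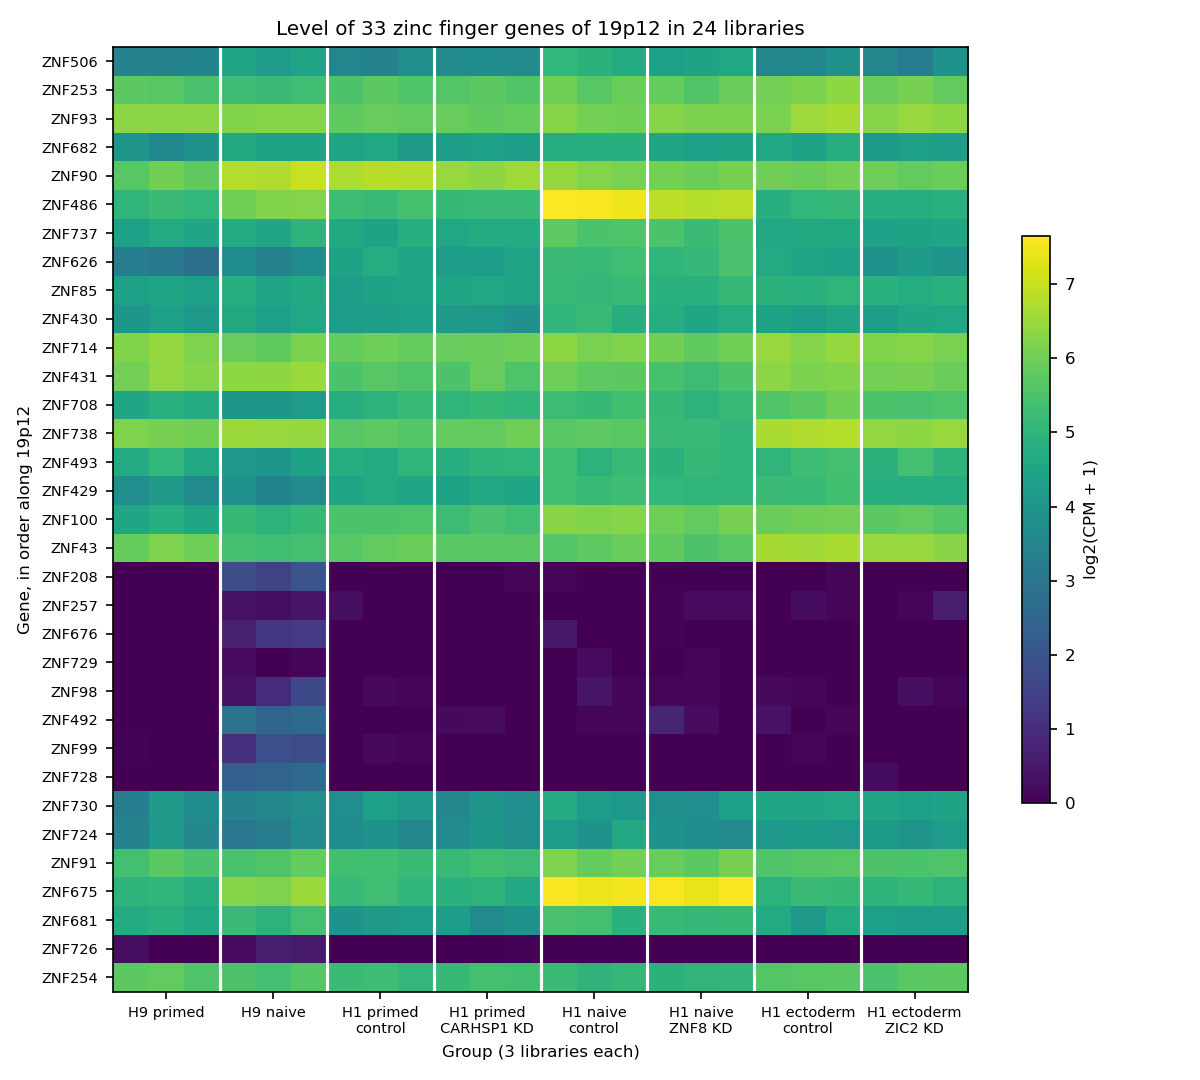
Level of each of the 33 members (rows, in chromosome order) in each of the 24 libraries (columns, 3 per group), as log2(CPM + 1) in colour. A dark band of 8 neighbouring genes from ZNF208 to ZNF728 is broken only in the 3 naive H9 libraries, and ZNF486 and ZNF675 are brightest in the 6 naive H1 libraries.

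Compared per length, the leading member differed between states. In CPM per kilobase of the deposited gene length, ZNF90 led in primed H1 controls at 17.9, followed by ZNF253 at 13.1 and ZNF738 at 12.9. ZNF486 led in naive H1 controls at 44.2 CPM per kilobase, ahead of ZNF675 at 27.2 and ZNF253 at 15.7. In ectoderm controls ZNF738 led at 27.4 CPM per kilobase, before ZNF253 at 19.7 and ZNF93 at 15.4. ZNF738 also led in both H9 states, at 17.2 CPM per kilobase in primed and 22.4 in naive cells. ZNF738, ZNF253 and ZNF93, the L1 binder, were among the 4 highest members per length in 7 of the 8 groups each.

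The block that was nearly silent outside naive H9 cells comprises ZNF208, ZNF257, ZNF676, ZNF729, ZNF98, ZNF492, ZNF99 and ZNF728. These are 8 consecutive members between 21932958 and 23003176 on chromosome 19 (GRCh38), over 1.07 megabases. The block was picked out from these same counts, so its sums are a description. Its counts summed to 530 in the 3 naive H9 libraries and to 1 in the 3 primed H9 libraries. ZNF257 and ZNF729 were low throughout. ZNF257 held 9 counts in naive H9 cells and 6 in the ZIC2 knockdown, and ZNF729 held 3 in naive H9 cells and 2 in naive H1 controls. In H1 the sum was 7 in primed controls, 15 in naive controls, 10 in ectoderm controls, 6 in the CARHSP1 knockdown, 26 in the ZNF8 knockdown and 12 in the ZIC2 knockdown. Without ZNF98 and ZNF492, which share sequence, the sum was 324 in naive H9 cells, 1 in primed H9 cells and 2 to 8 in the H1 groups. Both H9 groups come from 1 deposited table and all H1 groups from the other. In the contrast of naive H9 with naive H1 cells, line, doxycycline and deposited table cannot be told apart.

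ZNF492 was at 6.56, 4.50 and 5.26 CPM in the 3 naive H9 libraries and at 0 counts in all 3 primed ones. It was at least 71.2-fold higher in naive H9 cells, taking 3 counts over the group as the floor (edgeR adjusted p = 5.78e-09). ZNF728 was at 3.99, 4.50 and 5.17 CPM against 0 counts, at least 59.5-fold higher (edgeR adjusted p = 1.24e-08). Both genes were thus clear of 0 in every naive H9 library. ZNF208, whose array of 36 fingers is among the longest of the cluster, was at 2.48, 1.87 and 2.91 CPM against 0 counts, at least 31.7-fold higher (edgeR adjusted p = 4.68e-07). ZNF99 held 12, 24 and 25 counts in naive and 1, 0 and 0 in primed H9 libraries (edgeR adjusted p = 3.55e-06). These 4 genes passed the low-count filter only through the naive libraries, so their call as higher was the only one open to them.

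The rest of the block did not pass that filter and was not tested. ZNF98 held 3, 8 and 24 counts and ZNF676 held 7, 12 and 15 counts in naive H9 libraries, against 0 in primed ones, which makes them at least 14.8-fold and 14.6-fold higher. ZNF257 held 3, 2 and 4 counts against 0, at least 3.75-fold higher, and ZNF729 held 2, 0 and 1 counts, no more than the floor. These bounds cover counting error only. In naive H1 controls ZNF728 and ZNF99 had 0 counts, ZNF208 had 1, ZNF492 had 2, and ZNF676 and ZNF98 had 5 each, with all of those of ZNF676 in replicate 1. ZNF492 held 14, 2 and 0 counts in the ZNF8 knockdown libraries, so that 14 of its 16 counts came from replicate 1. ZNF726, which stands apart from the block further along the chromosome, held 12 counts in naive and 4 in primed H9 cells and at most 1 in any H1 group.

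A few genes of the block that are not members showed the same division, and most had no signal at all. GENCODE 29 places 56 genes in the block, and 35 of the 48 that are not members were at 0 counts in every group. Of these, 10 had at least 10 counts in naive H9 cells, and 8 of the 10 had fewer than 10 in each other group. They were ZNF208, ZNF676, ZNF98, ZNF99 and ZNF728, the protein-coding ZNF723, and the zinc finger pseudogenes ZNF209P and ZNF849P. ZNF723 held 49 counts in naive H9 cells, 0 in primed H9 cells and at most 3 in an H1 group. ZNF849P held 56 and ZNF209P 12 in naive H9 cells, both 0 in primed H9 cells. ZNF492 and the processed pseudogene PCGF7P complete the 10, and PCGF7P was at 14 counts in primed against 11 in naive H9 cells. RPL34P34, a ribosomal protein pseudogene, held 2 counts in primed and 4 in naive H9 cells, and up to 34 in an H1 group, in the ZNF8 knockdown.

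Genes at no more than 3 counts in primed H9 cells and at 10 or more in naive H9 cells were counted over all genes. This rule was set after the data were seen. They were 6 of the 33 members, all of them inside the block. Among other zinc finger genes they were 8 of 208 on chromosome 19 (5 of the 96 in 19q13.4) and 7 of 235 on other chromosomes. Over all 60671 genes they were 356. Among all 60671 genes, 104 also stayed under 10 counts in every H1 group. They included 5 of the members and 1 of the other zinc finger genes of chromosome 19, which is ZNF723 inside the block. Of the zinc finger genes on other chromosomes, 1 did so. No test of a difference between these sets was made.

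In H1 controls, naive cells had more RNA of most members than primed cells. Of the 24 members tested, 19 rose, 1 fell and 4 were not called, where 35% of all 15874 genes tested rose and 36.1% fell. The median log2 change was 0.49 for the members and 0.00 for all genes tested. It was larger than the members' for other zinc finger genes of chromosome 19 (0.66) and for those of 19q13.4 (0.73). For zinc finger genes of other chromosomes it was 0.14. The naive libraries lay entirely above the primed ones for 16 of the 33 members and entirely below for 1. The share of all genes separated in this way was not counted, so these numbers are a description. DESeq2 called 16 higher and 1 lower. Summed trophoblast and amnion markers were also higher in the naive controls, at 81.9 to 88.7 CPM over 8 genes against 19.7 to 24.6. All 8 were detected in the naive group, and HAND1 and CGA were at 0 counts in the primed group. Of the 7 tested, 5 were called higher and 1 lower. Ectoderm markers summed to 122 to 129 CPM in naive and 142 to 148 in primed controls. Of the 3 tested, 2 were called higher and 1 lower. The part of these markers in the result was not tested.

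ZNF675, which encodes a TRAF6-binding inhibitor also called TIZ, was at 35.0, 38.4 and 31.6 CPM in primed and 195, 176 and 183 CPM in naive H1 controls. It rose 5.25-fold (log2 2.39 ± 0.07; edgeR adjusted p = 1.32e-40), the largest change of any member that was detected in both states of H1. ZNF486 went from 37.6, 35.0 and 42.3 CPM to 200.4, 190.3 and 176 CPM, a 4.85-fold rise (log2 2.28 ± 0.07; edgeR adjusted p = 1.16e-39). For both genes every naive library held at least 4 times the level of the highest primed library.

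Smaller rises were found along the cluster. ZNF506 was at 10.3, 9.70 and 12.9 CPM in primed and 32.3, 29.2 and 25.2 in naive H1 controls (log2 1.37 ± 0.14; edgeR adjusted p = 6.75e-14). ZNF681 was at 14.3, 16.5 and 17.2 against 43.1, 41.5 and 28.3 CPM (log2 1.23 ± 0.13; edgeR adjusted p = 1.37e-13). ZNF737 was at 24.4, 20.9 and 26.8 against 53.1, 44.1 and 45.4 CPM (log2 0.96 ± 0.10; edgeR adjusted p = 8.14e-13). In none of the 3 did the groups overlap. ZNF100 rose by 0.75 ± 0.08 on the log2 scale (edgeR adjusted p = 1.72e-13), and ZNF91, the SVA repressor, by 0.74 ± 0.09 (edgeR adjusted p = 1.80e-11). ZNF93 rose by 0.28 ± 0.08 on the log2 scale (edgeR adjusted p = 0.000984), from 55.9 ± 1.89 to 68.6 ± 6.75 CPM.

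ZNF90 was the 1 member that fell in naive H1 controls. It was at 105, 112 and 111 CPM in primed and 85.3, 74.7 and 68.0 in naive libraries (log2 −0.53 ± 0.07; edgeR adjusted p = 2.56e-10), with no overlap. Its neighbour ZNF486, whose promoter is 86.9% identical, was the member with the second largest rise. ZNF43, ZNF254, ZNF730 and ZNF738 were not called, with log2 changes of −0.06 ± 0.08, −0.10 ± 0.10, 0.30 ± 0.15 and 0.02 ± 0.08. The call was kept in every alternative processing for 14 of the 19 that rose and for ZNF90. The rises of ZNF253, ZNF431, ZNF493, ZNF682 and ZNF708, all 0.41 or less on the log2 scale, lost it in 1 to 6 of 13.

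In H9 cells the members divided in both directions. Of the 28 tested, 14 rose, 5 fell and 9 were not called in naive against primed cells. Of the 24 members tested in all comparisons, 10 rose, 5 fell and 9 were not called, where 25.4% of 15761 genes rose and 26.1% fell. Their median log2 change was 0.20, against 0.00 for all genes tested. The remaining 4 that rose are ZNF208, ZNF492, ZNF99 and ZNF728 of the silent block. They passed the low-count filter only through the naive libraries, so no other call was open to them. Naive libraries lay entirely above primed ones for 16 of 33 members and entirely below for 6. Among the 24 tested in all comparisons these counts were 9 and 6. How many of all genes were separated in this way was not counted. Summed markers of other cell types were lower in the naive H9 libraries, but some single markers were called higher. These were 2 of the 4 tested fibroblast markers, 2 of the 4 tested trophoblast and amnion markers and 1 of the 4 tested ectoderm markers. The 8 fibroblast markers summed to 161 to 185 CPM against 261 to 347, with DCN and LUM at 0 counts in both groups. The 7 ectoderm markers summed to 69.2 to 72.5 against 186 to 211 CPM, and the 8 trophoblast and amnion markers to 8.69 to 14.3 against 52.1 to 61.8 CPM, with CGA at 0 counts in both groups. Their part in the members' changes was not tested.

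ZNF675 was again the member with the largest rise among those detected in both states. It was at 30.8, 31.6 and 26.5 CPM in primed and 75.5, 71.2 and 89.4 in naive H9 cells (log2 1.40 ± 0.11; edgeR adjusted p = 5.14e-09). ZNF486 was at 31.0, 36.2 and 32.6 against 63.7, 73.2 and 75.0 CPM (log2 1.08 ± 0.11; edgeR adjusted p = 8.51e-08). Naive and primed libraries were well apart for both. ZNF506 rose by 1.05 ± 0.14 (edgeR adjusted p = 4.39e-06) and ZNF682 by 0.70 ± 0.14 (edgeR adjusted p = 0.000432) on the log2 scale. ZNF90 was at 49.8, 64.5 and 52.5 CPM in primed and 108, 105 and 129 CPM in naive H9 cells (log2 1.04 ± 0.11; edgeR adjusted p = 2.99e-07), the opposite direction to H1.

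The 5 members that fell in naive H9 cells were ZNF43, ZNF708, ZNF493, ZNF253 and ZNF714. ZNF43 was at 56.8, 71.3 and 61.5 CPM in primed and 41.0, 38.4 and 41.6 in naive cells (log2 −0.65 ± 0.11; edgeR adjusted p = 5.21e-05). ZNF708 was at 21.9, 27.8 and 25.3 against 15.5, 15.6 and 17.6 CPM (log2 −0.62 ± 0.13; edgeR adjusted p = 0.000686). ZNF493 was at 24.8, 32.6 and 22.7 against 16.0, 15.3 and 20.6 CPM (log2 −0.62 ± 0.15; edgeR adjusted p = 0.00230). All 3 were lower in every naive library. ZNF253 fell by 0.37 ± 0.11 (edgeR adjusted p = 0.00671) and ZNF714 by 0.35 ± 0.11 (edgeR adjusted p = 0.0135) on the log2 scale, again without overlap. ZNF714 lost its call in 5 of 12 alternatives and ZNF430, among those that rose, in 6 of 12, while the other 17 calls were kept in all 12. These 17 include ZNF208, ZNF492, ZNF99 and ZNF728, for which no other call was open.

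Set side by side, 8 members rose in naive cells of both lines, namely ZNF506, ZNF682, ZNF486, ZNF626, ZNF430, ZNF100, ZNF675 and ZNF681. Another 7 rose in H1 and were not called in H9, among them ZNF91, ZNF93 and ZNF85. ZNF253, ZNF714, ZNF708 and ZNF493 rose in H1 and fell in H9, and ZNF90 did the reverse. ZNF738 rose and ZNF43 fell in H9 alone, and ZNF730 and ZNF254 were called in neither line.

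**Figure D2:**
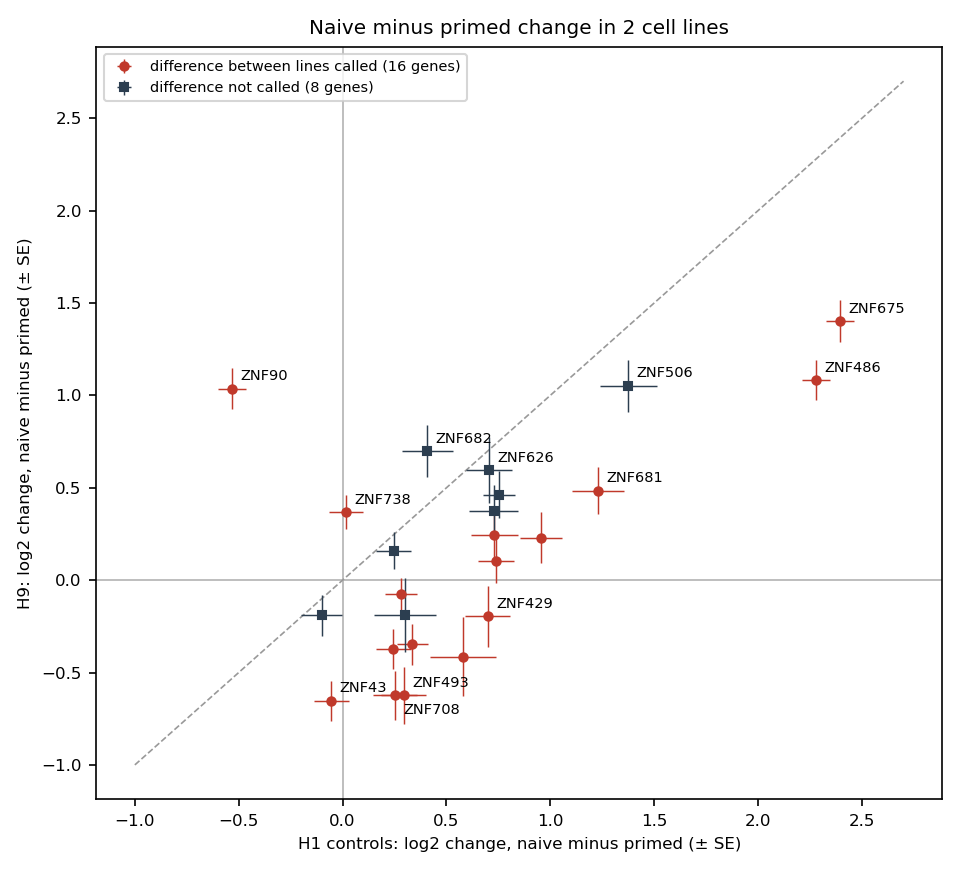
Log2 change from primed to naive (± SE) of the 24 members tested in both lines, in H1 controls (horizontal axis) and H9 cells (vertical axis), with the line of equal change dashed. Red circles are the 16 members whose change differed between the lines by edgeR's test of that difference, and 14 of these lie below the dashed line.

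Whether the change differed between the lines was tested with an interaction term over 12 libraries. The lines also differ in doxycycline and in the table their counts were deposited in, and these cannot be told apart from the line. The naive groups differed in markers too. The 8 naive markers summed to 268 to 279 CPM in naive H9 cells and 584 to 612 in naive H1 controls. The 7 primed markers summed to 1584 to 1687 CPM in naive H9 cells and 838 to 859 in naive H1 controls. In primed cells they summed to 4121 to 4155 in H9 and 3069 to 3173 in H1 controls. The part of these marker differences in the result was not tested. Of the 24 members tested in all comparisons, 14 had a lower naive minus primed change in H9 than in H1, 2 a higher one and 8 were not called. Over all 17140 genes tested, 23.6% were lower and 26.2% higher. The median difference of the 24 members was −0.55 on the log2 scale, against 0.04 for all genes. The summed trophoblast and amnion markers were higher in naive than in primed H1 controls and lower in naive than in primed H9 cells, and their part in the result was not tested.

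ZNF90 differed most among the members detected in both lines and states, with a change that was higher in H9 by 1.57 ± 0.14 (log2; edgeR adjusted p = 4.87e-11). ZNF486 and ZNF675 rose in both lines but less in H9, by −1.21 ± 0.13 (edgeR adjusted p = 3.39e-09) and −1.0 ± 0.13 (edgeR adjusted p = 2.91e-07). ZNF708, ZNF493, ZNF714 and ZNF253, which changed direction, differed by −0.88 ± 0.18, −0.93 ± 0.20, −0.69 ± 0.14 and −0.62 ± 0.14, with edgeR adjusted p from 0.000106 to 0.000527. Among the 8 that rose in both lines, no difference was called for ZNF506 (−0.33 ± 0.20), ZNF682 (0.28 ± 0.19), ZNF626 (−0.11 ± 0.21), ZNF430 (−0.36 ± 0.19) or ZNF100 (−0.29 ± 0.14), with edgeR adjusted p from 0.0873 to 0.681. For ZNF208, ZNF492, ZNF728 and ZNF99 the difference could not be estimated, because H1 held 0 to 2 counts in each state. All 4 passed the filter through the naive H9 libraries, and the call that edgeR gave for ZNF99 is not counted here.

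**Figure D3:**
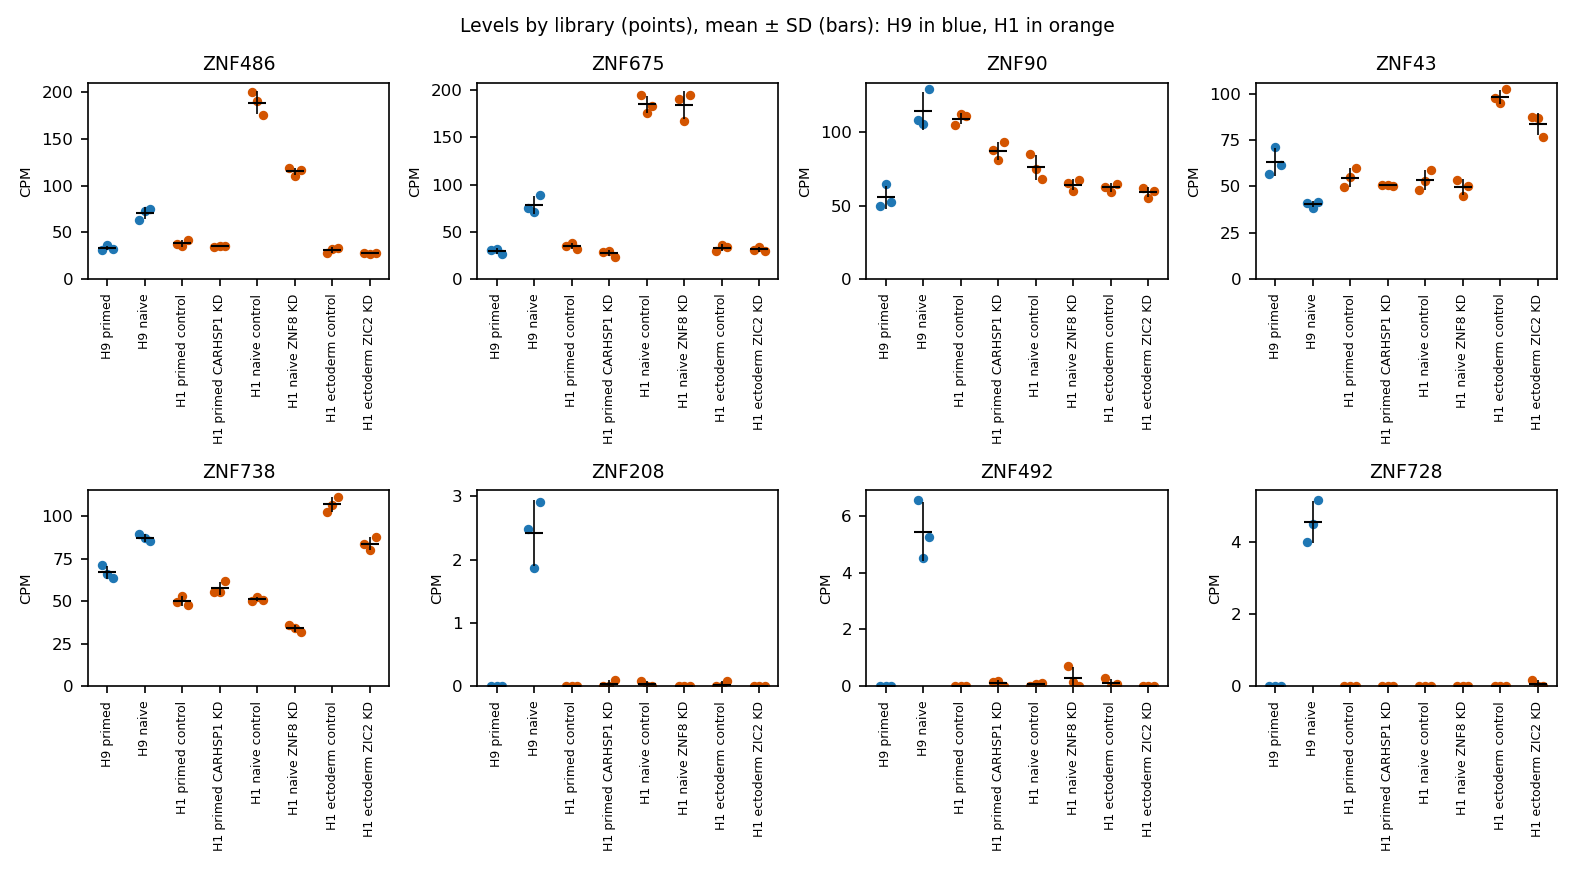
Level in CPM of 8 members in each library (points, H9 blue and H1 orange), with the mean and SD of each group of 3 as bars. ZNF486 and ZNF675 are highest in naive H1 libraries, ZNF43 and ZNF738 in ectoderm controls, and ZNF208, ZNF492 and ZNF728 are above 1 CPM in the 3 naive H9 libraries alone.

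Cells on day 2 of ectoderm differentiation had more RNA of most members than primed cells. Among the H1 controls 16 of 24 tested members rose, 2 fell and 6 were not called, where 30.7% of 15409 genes rose and 32.1% fell. The median log2 change was 0.46, against −0.00 for all genes tested. Fibroblast markers summed to 130.1 to 146 CPM in ectoderm against 277 to 293 in primed controls, and all 4 that were tested fell. Trophoblast and amnion markers summed to 8.96 to 13.39 against 19.7 to 24.6 CPM, with HAND1 and CGA at 0 counts in both groups. Of the 3 tested, 1 was called higher and 2 lower. The part of these markers in the members' changes was not tested. This comparison shares its primed control libraries with that of naive H1 cells. Over 15346 genes the log2 change fell with GC content (Spearman's rho −0.35, across genes, which share their libraries and are not independent), and the 4455 other genes in the members' GC range had a median log2 change of 0.25. When the trends with GC and with length were taken out, 9 members were called higher and 4 lower.

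ZNF738 was at 49.7, 53.3 and 47.7 CPM in primed and 103, 107 and 111 in ectoderm controls, a 2.12-fold rise (log2 1.09 ± 0.07; edgeR adjusted p = 2.53e-13). ZNF43 was at 49.7, 54.9 and 59.7 against 97.6, 95.1 and 103 CPM (log2 0.84 ± 0.08; edgeR adjusted p = 1.97e-10). ZNF708 was at 26.3, 29.9 and 35.3 against 46.8, 51.7 and 64.5 CPM (log2 0.84 ± 0.12; edgeR adjusted p = 3.58e-07). The groups were apart for all 3, and none of the 3 was among the members that rose most in naive H1 cells. ZNF431, ZNF93 and ZNF253 rose by 0.66 ± 0.08, 0.63 ± 0.09 and 0.59 ± 0.09 on the log2 scale, with edgeR adjusted p of 8.34e-08, 1.31e-06 and 1.66e-06. These 6 kept their calls in all 13 alternatives.

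ZNF90 fell in ectoderm controls, to 62.4, 59.4 and 65.0 CPM from 105, 112 and 111 (log2 −0.82 ± 0.07; edgeR adjusted p = 4.92e-11), in all 13 alternatives. ZNF486 fell to 27.5, 32.3 and 33.4 CPM from 37.6, 35.0 and 42.3 (log2 −0.31 ± 0.11; edgeR adjusted p = 0.0144). The call of ZNF486 was lost with DESeq2 (adjusted p = 0.0515), without primed control replicate 3 (0.119) and without ectoderm control replicate 1 (0.0767), with values of 2.49e-05 to 0.119 over its alternatives. ZNF675 was at 33.4 ± 3.40 CPM against 35.0 ± 3.41 and was not called (log2 −0.07 ± 0.11; edgeR adjusted p = 0.609).

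In the ZNF8 knockdown of naive H1 cells, ZNF8 being itself a KRAB zinc finger protein, many members were lower than in the naive controls. Of 24 tested, 11 fell, 13 were not called and 0 rose by edgeR's test, where 12.3% of 15323 genes fell and 11.9% rose. At an unadjusted p under 0.05 there were 13 lower and 0 higher, and DESeq2 called 9 lower and 0 higher. The share of all genes was not counted for either. The log2 change was below 0 for 23 of the 24 members and for 7816 of all 15323 genes tested. The median was −0.23 for the members and −0.01 for all genes tested. Since ZNF8 was itself not called lower, the group is the libraries labelled as its knockdown. Without naive control replicate 1, 7 members were called lower.

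ZNF486 was at 119, 111 and 116 CPM in the libraries labelled ZNF8 knockdown and at 200.4, 190.3 and 176 in the controls. It was 1.66-fold lower (log2 −0.73 ± 0.06; edgeR adjusted p = 1.24e-12), the largest fall of a member in this comparison, yet it stayed above the 35.0 to 42.3 CPM of primed H1 controls. ZNF675, which rose beside it in naive cells, was at 190.2, 167 and 195 CPM against 195, 176 and 183 and was not called (log2 −0.02 ± 0.06; edgeR adjusted p = 0.838). ZNF738 was at 36.3, 34.4 and 32.1 CPM against 50.3, 52.6 and 51.0 (log2 −0.59 ± 0.09; edgeR adjusted p = 1.27e-06). ZNF738 had not been called between naive and primed H1 controls, and its level in the labelled knockdown libraries was below those of both control groups.

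ZNF506 fell by 0.50 ± 0.11 (edgeR adjusted p = 0.000990), ZNF431 by 0.45 ± 0.09 (edgeR adjusted p = 0.000156), ZNF682 by 0.39 ± 0.11 (edgeR adjusted p = 0.00631) and ZNF100 by 0.32 ± 0.08 (edgeR adjusted p = 0.00162) on the log2 scale. These 4, with ZNF486 and ZNF738, kept their calls in all 13 alternatives. ZNF724, ZNF430, ZNF714, ZNF90 and ZNF730 also fell, by 0.57, 0.35, 0.30, 0.26 and 0.41 on the log2 scale, and lost the call in 1 to 8 alternatives. ZNF91 and ZNF93 were at 59.2 ± 7.42 and 72.0 ± 3.81 CPM against 64.5 ± 7.84 and 68.6 ± 6.75, with neither called. Naive markers summed to 313 to 323 CPM in these libraries against 584 to 612 in their controls, trophoblast and amnion markers to 21.1 to 26.9 against 81.9 to 88.7, and fibroblast markers to 400.1 to 437 against 308 to 320 (319.5 at the highest). CGA was at 0 counts in the knockdown libraries, as were COL3A1, DCN and LUM, and the part of these markers in the members' changes was not tested.

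In the ZIC2 knockdown on day 2 of ectoderm differentiation, 6 of 24 tested members fell, 18 were not called and 0 rose by edgeR's test, where 12.8% of 15013 genes fell and 15.3% rose. At an unadjusted p under 0.05 there were 10 lower and 0 higher, and DESeq2 called 5 lower and 0 higher. For neither was the share of all genes counted. The log2 change was below 0 for 22 of the 24 members and for 7702 of all 15013 genes tested. The median was −0.19 for the members and −0.01 for all genes. The log2 change rose with GC content over 14960 genes (Spearman's rho 0.33, across genes, a description), and the 4377 other genes in the members' GC range had a median of −0.11. With GC and length trends removed, 3 members were called lower, and likewise 3 without knockdown replicate 3 or without control replicate 3.

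ZNF738 was at 83.7, 80.2 and 87.9 CPM against 103, 107 and 111 in the ectoderm controls (log2 −0.36 ± 0.07; edgeR adjusted p = 0.000843). ZNF429 was at 26.7, 26.5 and 25.5 CPM against 36.0, 34.9 and 39.8 (log2 −0.50 ± 0.11; edgeR adjusted p = 0.00184). These 2 kept their calls in all 13 alternatives. ZNF626 was at 13.8, 17.0 and 15.1 against 24.6, 21.4 and 19.6 CPM (log2 −0.51 ± 0.15; edgeR adjusted p = 0.0128), and lost its call without knockdown replicate 1 (0.0504) and without control replicate 1 (0.0586), its alternatives giving 0.00386 to 0.0586. ZNF100, ZNF43 and ZNF708 fell by 0.29, 0.24 and 0.30 on the log2 scale with edgeR adjusted p of 0.0168, 0.0241 and 0.0406, and each lost the call in 4 to 8 alternatives. Ectoderm markers summed to 808 to 854 CPM in the knockdown against 1014 to 1160 in the controls, HES5 being at 0 counts in both. Fibroblast markers summed to 224 to 254 against 130.1 to 146 CPM, with COL3A1, DCN, LUM and POSTN at 0 counts in both groups. Trophoblast and amnion markers summed to 14.3 to 20.5 against 8.96 to 13.39 CPM, and 2 of the 3 tested were higher. GATA3 and TFAP2A were at 0 counts in the controls, and HAND1 and CGA in both groups. The part of these markers in the members' changes was not tested.

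In the CARHSP1 knockdown of primed H1 cells few members changed. CARHSP1 is an RNA-binding protein with a cold shock domain. Of 24 tested members 2 fell, 22 were not called and 0 rose by edgeR's test, where 9.87% of 15642 genes fell and 10.3% rose, so the share of members that fell was near that of all genes. At an unadjusted p under 0.05 there were 4 lower and 1 higher, ZNF738, and DESeq2 called 2 lower and 0 higher. Shares of all genes were not counted for these. The median log2 change was −0.01, against −0.00 for all genes. ZNF90 was at 88.0, 80.8 and 93.0 CPM against 105, 112 and 111 (log2 −0.32 ± 0.06; edgeR adjusted p = 0.000311), in all 13 alternatives. ZNF675 was at 28.4, 30.1 and 23.8 CPM against 35.0, 38.4 and 31.6 (log2 −0.36 ± 0.10; edgeR adjusted p = 0.0115), and lost its call without knockdown replicate 3 (0.112) and without control replicate 1 (0.0517) or 2 (0.0710), where the alternatives gave 0.000578 to 0.112. Over 15576 genes the log2 change fell with GC content (Spearman's rho −0.33, a description), and 6 members were called lower once GC and length trends were removed.

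**Figure D4:**
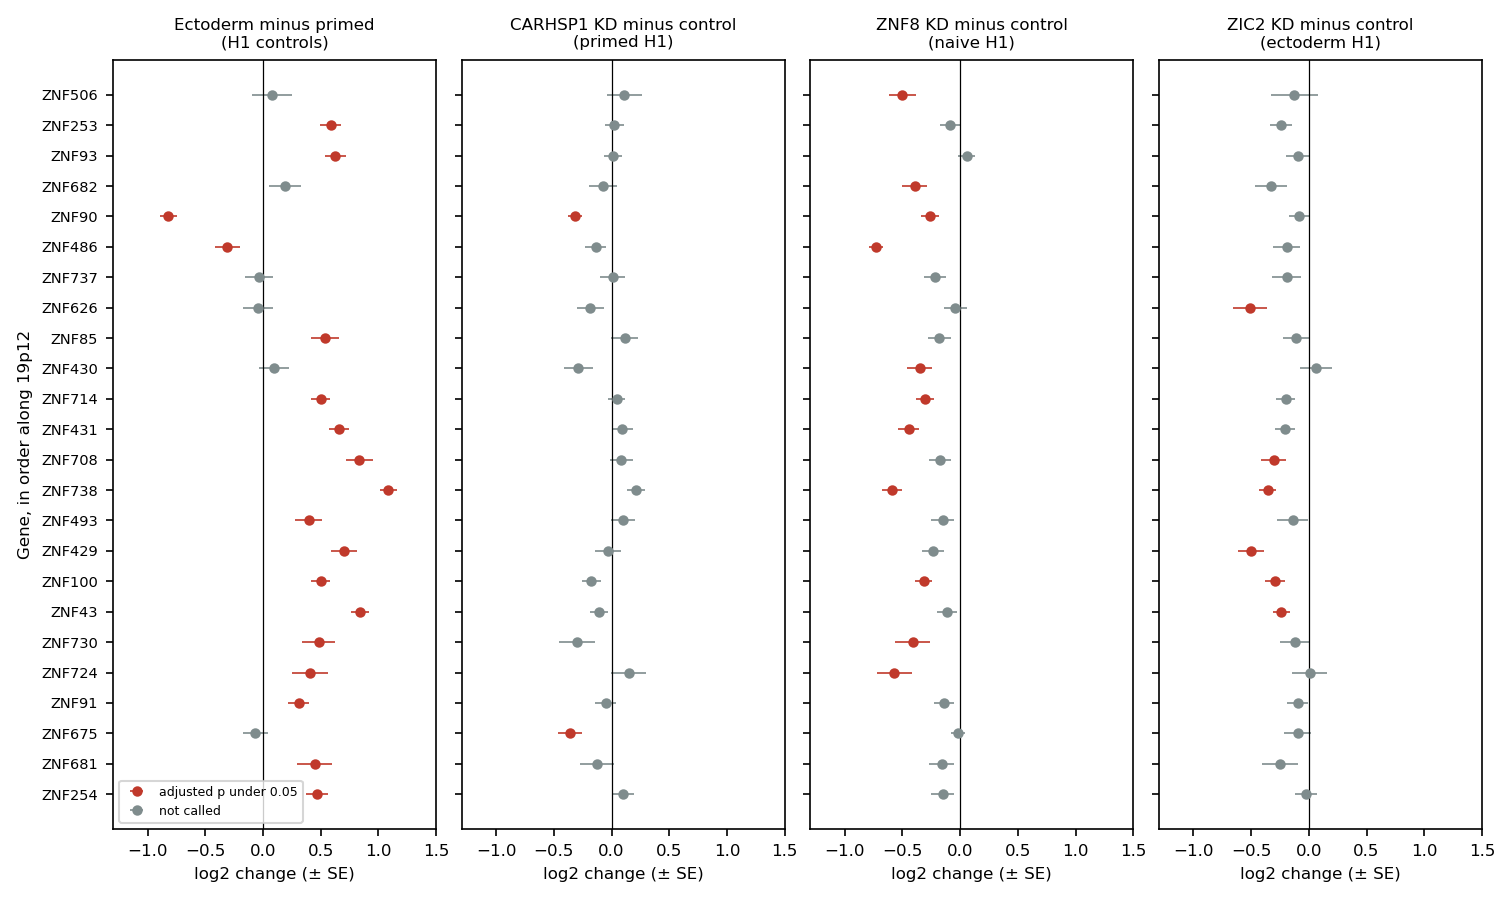
Log2 change (± SE) of the 24 tested members, in chromosome order, for ectoderm against primed H1 controls and for each knockdown against its control, with red for edgeR adjusted p under 0.05. In the ZNF8 comparison 23 of 24 points and in the ZIC2 comparison 22 of 24 lie below 0, while 19 of 24 lie above 0 in ectoderm. Of all genes tested, 7816 of 15323 and 7702 of 15013 were below 0, and 7683 of 15409 were above 0.

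The same counts were taken for other zinc finger genes. They were chosen by symbol, as 208 on chromosome 19 outside the members and 235 on other chromosomes. In naive against primed H1 controls 128 of 196 tested genes of chromosome 19 rose and 14 fell, and 84 of 215 on other chromosomes rose and 55 fell, beside the 19 and 1 of 24 members. In H9 the counts were 64 higher and 14 lower of 195 on chromosome 19, and 45 higher and 63 lower of 216 elsewhere. In ectoderm 102 of 191 rose and 16 fell on chromosome 19, and 97 of 212 rose and 28 fell elsewhere. In the ZNF8 knockdown 32 of 197 fell and 7 rose on chromosome 19, and 33 of 215 fell and 7 rose elsewhere. In the ZIC2 knockdown 29 of 195 fell and 4 rose on chromosome 19, and 29 of 211 fell and 13 rose elsewhere. In the CARHSP1 knockdown 12 of 190 fell and 8 rose on chromosome 19, and 14 of 212 fell and 9 rose elsewhere. Among the genes of 19q13.4, which are part of the chromosome 19 counts, 63 of 93 rose and 8 fell in naive H1 controls, and 35 of 94 rose and 6 fell in naive H9 cells. In the difference between lines 87 of 199 genes of chromosome 19 were lower and 19 higher in H9, with a median of −0.44. Of those on other chromosomes 85 of 220 were lower and 32 higher, with a median of −0.24. In each of these comparisons the direction with more calls was the same for the members and for the other zinc finger genes of chromosome 19, and no test of a difference between the sets was made.

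The silencing partners of KRAB proteins were followed as 20 genes, all of which were tested in every comparison. TRIM28, the cofactor bound by the KRAB domain, was at 811 ± 32.1 CPM in primed and 828 ± 32.2 in naive H1 controls and was not called (log2 0.01 ± 0.04; edgeR adjusted p = 0.789). It fell to 459.8 ± 4.88 CPM in ectoderm controls (log2 −0.83 ± 0.05; edgeR adjusted p = 2.53e-14) and was 680.1 ± 69.3 CPM in the ZIC2 knockdown, higher than in those controls (log2 0.56 ± 0.07; edgeR adjusted p = 9.34e-07). TRIM28 was picked after its values were seen, and most of the partners did not share its fall in ectoderm. A relation to the members' changes was not tested. Of the 20 partners 9 rose and 8 fell in naive H1 controls, 3 rose and 10 fell in naive H9 cells, and 14 rose and 5 fell in ectoderm. In naive H1 controls HDAC1, a histone deacetylase, rose by 1.11 ± 0.05 on the log2 scale (edgeR adjusted p = 1.77e-29), and MPHOSPH8, a subunit of the HUSH silencing complex, by 1.36 ± 0.07 (edgeR adjusted p = 1.08e-26). DNMT1, the maintenance DNA methyltransferase, fell by 0.92 ± 0.05 (edgeR adjusted p = 3.03e-25). In naive H9 cells CBX5, a heterochromatin protein, fell by 1.00 ± 0.12 (edgeR adjusted p = 1.12e-06), and DNMT1 by 0.49 ± 0.08 (edgeR adjusted p = 6.23e-05). In the knockdowns 1 partner rose and 6 fell for ZNF8, 3 rose and 10 fell for ZIC2, and 4 rose and 3 fell for CARHSP1.

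Among 11785 genes with a mean of at least 5 CPM, 3 followed the members' summed level most closely over the 8 group means of log2(CPM + 1). They were TOR1B, with a Pearson correlation of 0.982, PDE1B, with 0.973, and R3HCC1L, with 0.968, as a description over 8 points. TOR1B ran from 21.3 CPM in the CARHSP1 knockdown to 29.3 in naive H1 controls, and R3HCC1L from 23.8 to 49.4 in the same groups.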

How the data were processed

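Bulk polyA RNA was sequenced in 24 libraries. The authors deposited raw read counts per gene in 2 tables of 60671 genes, with a gene length column; 27 columns of other samples were not used. HISAT2 and GRCh38 are named per the submitters' processing notes. The sources used here give no aligner version, counting tool or strand setting. Counts were tested with edgeR 4.0.16 (R 4.3.3; limma 3.58.1) within each comparison's groups, after filterByExpr and TMM scaling, with Benjamini-Hochberg adjustment at 0.05. DESeq2 1.42.0 was an alternative, as were RLE scaling, no filter, all groups in 1 fit, a replicate block, removal of GC and length trends, and leaving out each library. Levels were put on 1 TMM scale across both tables. Gene models came from GENCODE 29. All replicate pairs differed by more than sampling noise (chi-square per degree of freedom 2.44 to 9.16). The members and gene lists were chosen with earlier results of these data known. Per-library values are given for members with the smallest adjusted p, the highest level per length, or 0 counts in a group; the targets, up to 4 genes a list with the smallest adjusted p and the 3 genes most like the summed members are also named. TRIM28, KLF17, the quiet block itself and its genes that are no members were chosen after their values were seen.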

Additional observations from a re-analysis of the deposited data

Results flagged for a closer look

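For 16 members detected in both lines the naive minus primed change differed between H9 and H1 by edgeR's test of that difference, with adjusted p under 0.05. Values are log2, H9 minus H1. The change was higher in H9 for ZNF90 (1.57) and ZNF738 (0.34). It was lower in H9 for ZNF486 (−1.21), ZNF675 (−1.0), ZNF724 (−1.0), ZNF493 (−0.93), ZNF429 (−0.90), ZNF708 (−0.88), ZNF681 (−0.75), ZNF737 (−0.73), ZNF714 (−0.69), ZNF91 (−0.64), ZNF253 (−0.62), ZNF43 (−0.60), ZNF85 (−0.49) and ZNF93 (−0.37). Of the 16, ZNF85 and ZNF93 lost the call in at least 1 alternative, and ZNF724 shares much of its sequence with an overlapping gene. ZNF99 also passed the threshold, with a fitted value of 8.51, but it is not read as a difference: it passed the low-count filter only through the naive H9 libraries, and H1 held 0 to 2 counts of it in each state. Line, doxycycline, deposited table and the differing marker levels of the naive groups cannot be told apart here.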

How the results depend on the processing

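No called change of a member turned its direction under any alternative run. With GC and length trends removed, 6 members were lower in the CARHSP1 knockdown in place of 2, 3 in the ZIC2 knockdown in place of 6, and in ectoderm 9 were higher and 4 lower in place of 16 and 2. The same counts were found with the replicate block and these trends removed together. With the trends alone removed, 18 members were higher and 4 lower in naive H9 cells in place of 14 and 5. In naive H1 controls 17 were higher in place of 19, and for ZNF8 12 were lower in place of 11. Without the low-count filter 17 were higher in naive H9 cells. The members higher in naive H9 cells always include ZNF208, ZNF492, ZNF99 and ZNF728 of the quiet block, for which no other call was open. DESeq2 called 1 member lower in ectoderm. The share of all genes called under each alternative was not counted. Leaving out 1 library gave 0 to 1 higher and 1 to 2 lower for CARHSP1, 7 to 11 lower for ZNF8, 3 to 6 lower for ZIC2, and 1 to 2 lower in ectoderm. Deviations of same-numbered samples did not correlate above 0.1 in all 3 pairs of any comparison, and the main fits use no pairing. In the CARHSP1 comparison 3 of 3 correlated best with their own number, at 0.03 to 0.04. Correlations over 3 pairs cannot show that the samples were unpaired. With the replicate block 1 member was called higher for CARHSP1 in place of 0, and 7 lower for ZIC2 in place of 6. The cause of these changes was not tested. Depth limits the quiet block, which summed to 1 to 26 counts in each group other than naive H9.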
